A study of Gallus gallus with 6 samples.

Results

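*CRABP1* encodes a small cytoplasmic protein that binds retinoic acid. It was chosen by its measured values, which were higher in leg and wing feathers than in neck feathers, so its differences over neck are given as a description and carry no test. The retinoid genes set beside it were chosen by name, and 11 of the 17 names had an entry. *RARG*, *RXRA*, *RXRB*, *RBP7*, *CYP26B1* and *CYP26C1* had none and were not analysed here. This gave 12 genes, of which 2 (*CRABP1* and *RARA*) were listed in the first of the 2 deposited tables and all 12 in the second, and each table has 6534 entries.

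The libraries came from actively growing neck, wing contour and leg feathers of untreated wild-type adult chickens, with the strain given as domesticus. Each region has 2 labelled replicates, 1 per table, so that each table holds 1 library per region and the replicate number cannot be told apart from the table. According to the labels, the RNA was taken from epithelium of the branching feather after the mesenchymal pulp had been removed, pooled over several feathers, whereas the paper's methods speak of the whole follicle or of dissected dermal papilla and pulp. In the second table the header of each region holds the word chicken with a different number. The headers do not say whether these numbers name birds or samples. If they name birds, bird and region cannot be told apart there. Nothing in the labels says that replicates 1 and 2 of a region are separate birds, and p-values then measure only the spread between these samples, which may be technical.

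Retinoic acid is made from vitamin A in 2 steps. Retinol is oxidized to retinal by enzymes such as RDH10, and retinal to retinoic acid by the ALDH1A enzymes. It binds the nuclear receptors RAR and RXR, which switch target genes on or off, and the CYP26 enzymes break it down. CRABP1 holds retinoic acid in the cytoplasm and passes it to these degrading enzymes, while its relative CRABP2 carries it to the receptors. In birds, added retinoic acid is known to alter the patterning and identity of skin appendages such as feathers and scales.

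The first table holds whole numbers whose unit is not stated, and no entry in it has a mean below 9.67. The second holds FPKM, the fragments mapped to a gene scaled by transcript length and by library size, with 765 genes at 0 in all 3 libraries. The neck, wing and leg columns sum to 4195932, 1780292 and 3051339 in the first table, and to between 701757.6 and 805460.2 FPKM. The number of sequenced fragments behind a value is unknown. Changes are given on the log2(value + 1) scale, which understates those of low genes. Of 11 epithelium markers with FPKM, 9 had a mean of at least 1, and the keratin genes *KRT5* and *KRT75* were listed at 0, although *KRT5* had 307, 519 and 244 in neck, wing and leg of the first table. Their FPKM summed to 32253, 5764 and 33905, mostly from the feather keratin *F-KER*, which had 30066, 2261 and 31971. The adhesion molecule *EPCAM* had 872, 932 and 688 FPKM, and the basal keratin *KRT14* had 275, 972 and 281. The wing library thus stood apart from the others in *F-KER* and *KRT14* but not in *EPCAM*. Mesenchymal transcripts were present as well and are described with their values further on.

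In the first table the neck library had a *CRABP1* value of 5, the wing library 23 and the leg library 34. In the second table it had 7.55 FPKM in neck, 43.4 in wing and 59.1 in leg. Neck was lowest and leg highest in both tables, and neither wing nor leg came near the neck value. The wing value was 4.6 times the neck value by the first table and 5.76 times by FPKM, and the leg value was 6.8 and 7.83 times the neck value. On the log2(value + 1) scale wing stood above neck by 2.00 and 2.38, and leg above neck by 2.54 and 2.81. Both differences use the same neck libraries. In bulk RNA, fewer cells of a type and less RNA per cell cannot be told apart.

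Leg and wing were much closer to each other. Leg exceeded wing by 0.54 on the log2(value + 1) scale in the first table and by 0.43 in FPKM, where the ratio of leg to wing was 1.36. The median gene went the other way, with leg against wing at -0.23 in the first table and -0.44 in FPKM. The order leg above wing above neck was therefore the same in both tables, but with 1 library per region in each, the spread between feathers of one region cannot be separated from the difference between leg and wing.

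**Figure D1:**
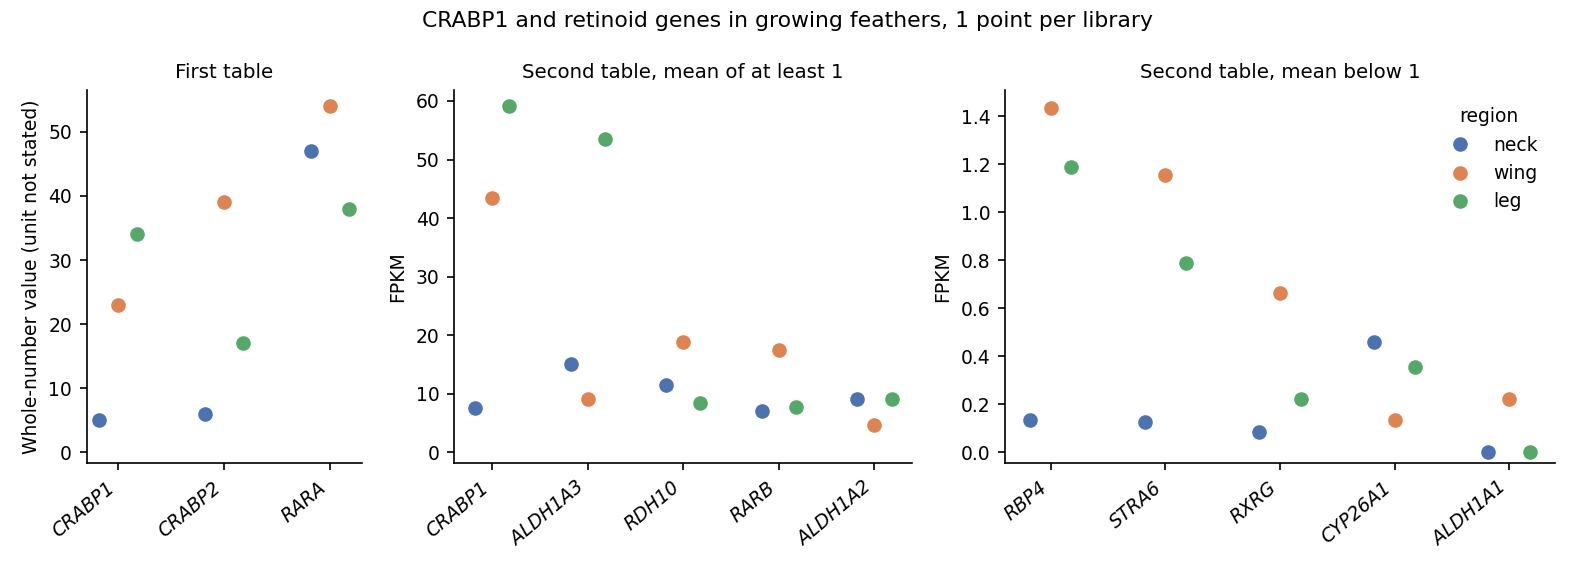
Values of *CRABP1*, *CRABP2* and retinoid genes in each library (1 point per library, coloured by region), as whole-number values of the first table at left and as FPKM at centre and right. *CRABP1* is lowest in neck in both tables (5 and 7.55 FPKM), and *ALDH1A3* is highest in leg (53.5 FPKM).

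The second table had 4736 entries with a mean of at least 1 FPKM. On the log2(value + 1) scale none of these had a larger difference between leg and neck than *CRABP1*, and 92 had a larger difference between wing and neck. The first rank depends on that scale. By the plain ratio of leg to neck, the mesenchyme marker *TWIST2* had 9.52 and *CRABP1* 7.83, with *TWIST2* at 0.738 FPKM in neck. Of the 6534 entries of the first table, 24 exceeded *CRABP1* for leg against neck and 121 for wing against neck. For leg against wing it was less extreme, with 694 whole-number entries and 304 FPKM entries above it. A difference of at least 2-fold over neck was held in wing by 5.45% and in leg by 1.79% of the whole-number entries, and by 15.1% and 2.93% of the FPKM entries. These shares are given for scale only, since *CRABP1* was selected on the same values.

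The locus of *CRABP1* in the first table is chromosome 10, from 3636151 to 3682220, in an assembly the table does not name. The same interval is given to *DNAJA4*, a heat shock co-chaperone, and *WDR61*, a WD repeat protein, each with values of its own. In neck, wing and leg *DNAJA4* had 88, 69 and 58, and *WDR61* had 47, 53 and 41. *WDR61* also had 84.0 FPKM in neck, 112 in wing and 78.9 in leg. The genes on either side were *IREB2*, a regulator of iron metabolism, with 20, 19 and 17, and *IDH3A*, a mitochondrial dehydrogenase subunit, with 24, 23 and 19. None of the entries within 100 kb other than *CRABP1* had leg above neck in the first table, and the closest in wing, *WDR61*, stood 0.17 above neck on the log2(value + 1) scale.

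Of the 2179 genes with a single entry in each table, 16 were at least 2-fold higher in both wing and leg than in neck in both tables. Besides *CRABP1* they included *ASIP*, *CD74*, *CDH11*, *COL1A2*, *COL3A1*, *COL6A2*, *ENPP2*, *FSTL1*, *GPX3*, *MMP2*, *OGN*, *SERPINF1*, *SPARC* and *VCAN*. Several of these encode matrix proteins. The smallest of the 4 differences over neck was 2.00 for *CRABP1* and 1.93 for *COL6A2*, a collagen chain. *CRABP1* was the only gene of the 16 with leg above wing in both tables. *CD74* and *GPX3* had leg above wing in the first table only. *VCAN* had it in FPKM only, by 0.47 on the log2(value + 1) scale where *CRABP1* had 0.43. Across all shared genes, the order leg above wing above neck held in both tables for 3 genes. The other two were *MFAP1*, a splicing factor, with 14, 16 and 20 in neck, wing and leg and with 31.1, 48.2 and 48.5 FPKM, and *SPTAN1*, a spectrin chain, with 24, 28 and 34 and with 70.8, 103.7 and 121.5 FPKM.

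**Figure D2:**
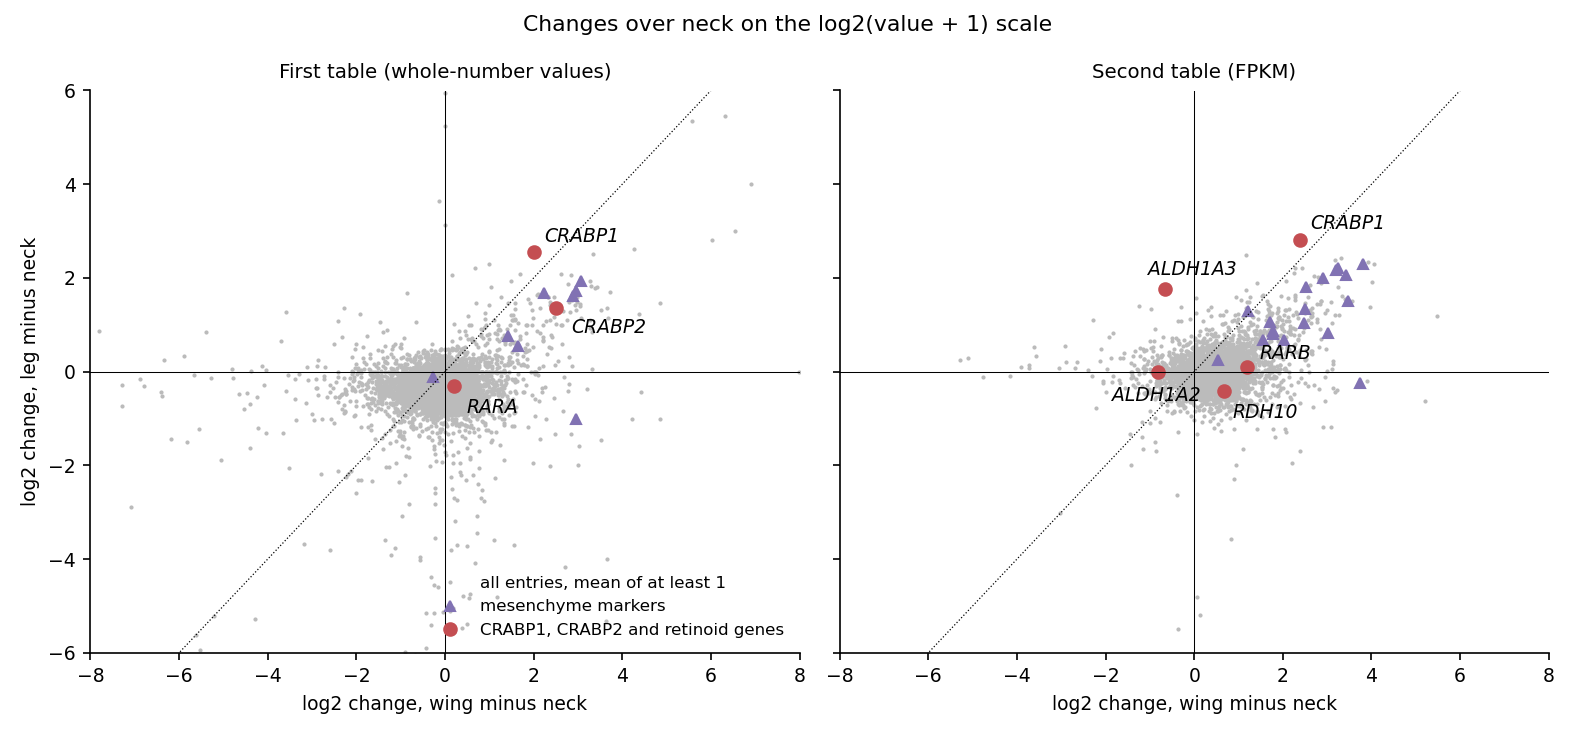
Log2 difference of wing over neck (x axis) against leg over neck (y axis) on the log2(value + 1) scale, for all entries with a mean of at least 1 (grey), mesenchyme markers (triangles) and *CRABP1*, *CRABP2* and retinoid genes (circles), with the dotted line where leg equals wing. *CRABP1* lies above the line in both tables, at 2.00 and 2.54 and at 2.38 and 2.81, and 45 of 6534 grey entries at left and 1 of 4736 at right fall outside the axes.

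The genes whose pattern was nearest to that of *CRABP1* were found by the root mean square distance of log2(value + 1), centred within each table, over the 6 libraries and among 2129 genes, where the median distance was 1.23. *CD74*, the chaperone of MHC class II, was nearest at 0.388. It had 19, 47 and 59 in neck, wing and leg, and 22.4, 96.4 and 88.0 FPKM. *GPX3*, a secreted glutathione peroxidase, followed at 0.469 with 12, 34 and 35, and with 15.9, 64.3 and 50.6 FPKM. *SPARC*, a matrix-associated protein, lay at 0.511 and had wing above leg in each table, with 34, 164 and 111 and with 57.6, 434.8 and 234.1 FPKM. *OGN* and *VCAN*, matrix proteoglycans, *BF2*, an MHC class I gene of the chicken, and *DIO2*, which activates thyroid hormone, lay between 0.560 and 0.674. All 8 shared the low neck value of *CRABP1*, but none had leg above wing in both tables. *CD74*, *GPX3* and *BF2* had it in the first table only, and *VCAN* in the second only, with 25.2 FPKM in wing and 35.2 in leg.

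**Figure D3:**
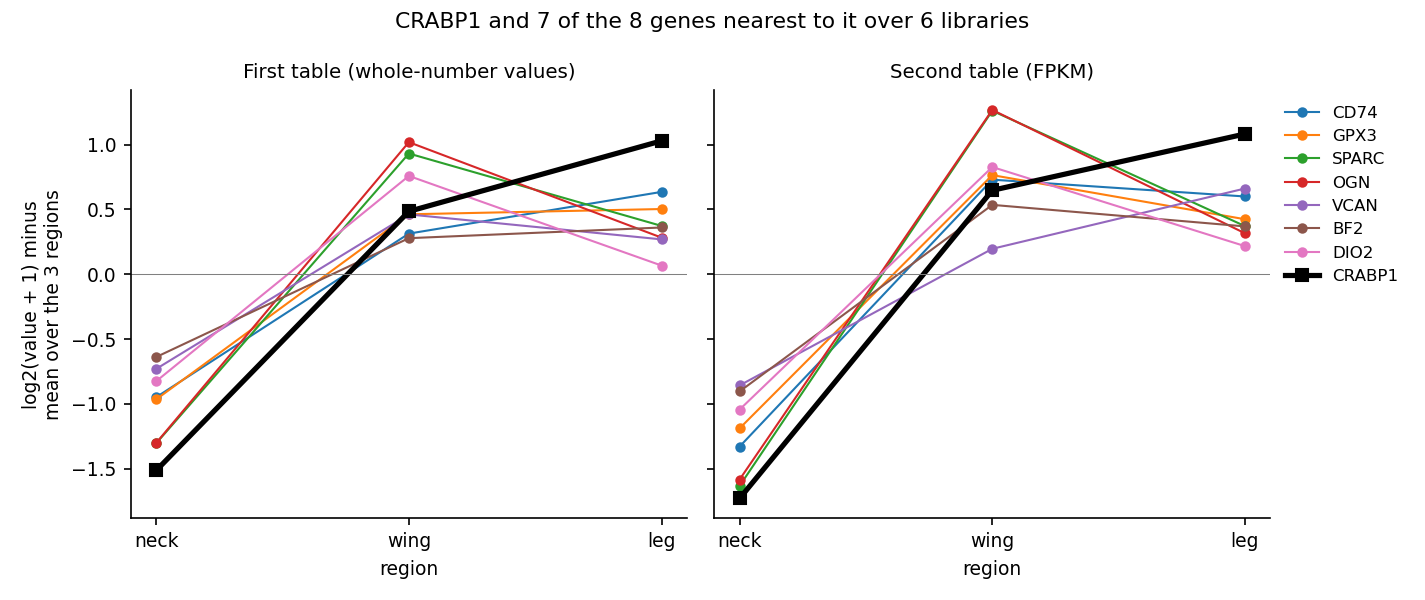
*CRABP1* (black squares) and 7 of the 8 genes nearest to it, as log2(value + 1) minus the mean over the 3 regions, by region and table. All are lowest in neck, while *SPARC*, *OGN* and *DIO2* peak in wing and *CRABP1* in leg.

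*CRABP2* was listed in the first table only, on chromosome 25 from 1446661 to 1451446. Its values were 6, 39 and 17 in neck, wing and leg. Like *CRABP1* it was lowest in neck, but it was highest in wing, by 2.51 over neck and 1.15 over leg on the log2(value + 1) scale. No second library was there to compare it with.

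Of the 11 retinoid genes in the second table, 4 had a mean of at least 1 FPKM (*ALDH1A2*, *ALDH1A3*, *RARB* and *RDH10*). Each of these had 1 FPKM value per region and was read in 1 table only, so no test was possible. Among these 4, 1 was at least 2-fold higher in wing than in neck and 0 were lower, where 15.1% and 1.82% of all entries were. For leg against neck, 1 was higher and 0 were lower, where 2.93% and 0.823% of all entries were. For leg against wing, 1 was higher and 2 were lower, where 2.17% and 14.8% of all entries were.

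*ALDH1A3*, which makes retinoic acid from retinal, had 15.1 FPKM in neck, 9.18 in wing and 53.5 in leg. Leg stood far above both other regions, at 3.54 times the neck and 5.82 times the wing value. The log2 difference was 1.76 for leg against neck, exceeded by 24 of 4736 entries, and 2.42 for leg against wing, exceeded by 21. Its wing value lay below neck by 0.66 on that scale, unlike that of *CRABP1*.

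*ALDH1A2*, the main retinoic acid producing enzyme of the early embryo, had 9.17 FPKM in neck, 4.74 in wing and 9.08 in leg. Neck and leg were alike and wing was lower, by 0.82 against neck. *ALDH1A1* had 0 FPKM in neck and leg and 0.224 in wing. The 3 enzymes together had 24.29 FPKM in neck, 14.15 in wing and 62.55 in leg, so that their sum was highest where *CRABP1* was highest and lowest in wing rather than in neck. *ALDH1A3* made up most of the sum in every region.

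*RDH10*, which forms retinal from retinol, had 11.5 FPKM in neck, 18.9 in wing and 8.40 in leg. It was thus highest in the region where the *ALDH1A* sum was lowest. Leg lay below wing by 1.08 and below neck by 0.41 on the log2(value + 1) scale. *CYP26A1*, which degrades retinoic acid, had 0.459 FPKM in neck, 0.136 in wing and 0.355 in leg, all under 1 FPKM.

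Among the receptors, *RARB*, itself a known target of retinoic acid, had 7.13 FPKM in neck, 17.5 in wing and 7.68 in leg. Wing was above neck by 1.19 and leg by 0.09. The high value was in wing, not in leg. With each library centred on its median the wing difference was 0.81 and leg against wing was -0.68, and *RDH10* came to -0.67 for leg against wing, so that none of these reached 2-fold. Centring moved the ALDH1A genes past it instead, with wing against neck at -1.21 for *ALDH1A2* and -1.05 for *ALDH1A3*, and leg against wing at 1.22 for *ALDH1A2*. The wing counts of these 4 genes, 1 higher and 0 lower than neck as deposited, thus became 0 higher and 2 lower.

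*RARA*, the other listed RAR gene, had 47, 54 and 38 in neck, wing and leg of the first table, on chromosome 27 from 4830347 to 4836063. In the second table it is listed at 0 in all 3 libraries. No difference between regions passed limma (adjusted p = 0.821 for wing over neck, 0.751 for leg over neck and 0.438 for leg over wing), a fit that includes those zeros. *RXRG*, a retinoid X receptor gene and so a partner of the RARs, had 0.0855 FPKM in neck, 0.665 in wing and 0.224 in leg.

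*RBP4*, the plasma carrier of retinol, had 0.137 FPKM in neck, 1.43 in wing and 1.19 in leg. *STRA6*, the membrane receptor for RBP4, had 0.126, 1.15 and 0.789 FPKM. Both were lowest in neck, as *CRABP1* was, but with wing above leg and with a mean under 1 FPKM. *TTR*, which carries RBP4 in plasma, had 3.62, 4.02 and 1.64 FPKM in neck, wing and leg. *RBP5*, a cellular retinol-binding protein, was more abundant, with 38.3, 47.7 and 37.6 FPKM and with 51, 36 and 42 in the first table, and no difference passed limma (adjusted p from 0.6 to 0.804).

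The retinoid genes were then counted within a wider pathway of 85 names besides *CRABP1*, the 17 names above included, that cover uptake and binding, retinol and retinal metabolism, receptors and cofactors, retinoic acid induced genes, the lipid-binding protein family of *CRABP1* and the receptors that pair with RXR. Of these, 52 were listed in either table and 14 in both (*RARA* among them), and those 14 were tested with limma on all 2179 shared genes. In wing against neck 1 of 14 rose and 2 fell, where 19.5% of all genes rose and 8.21% fell. In leg against neck 0 rose and 2 fell, against 1.79% and 10.4% of all genes. In leg against wing 2 rose and 3 fell, against 5.97% and 40.7%. The median log2 difference of the 14 was -0.05, -0.16 and -0.15, and that of all genes 0.14, -0.20 and -0.32. None of the 10 calls passed when the replicate block was left out or when each gene was tested with its own spread over 2 residual degrees of freedom. This loss is not particular to the pathway genes. Over all 2179 genes the fit without the block called 1, 0 and 2 in the 3 comparisons. The fit with own spread called 0 in each. The calls of *FABP3*, *FABP7* and *PPARG* come from the lipid-binding family and the receptors that pair with RXR, not from the lists of retinoid binding or metabolism.

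*FABP3*, a fatty acid-binding protein of the *CRABP1* family, had 21, 121 and 14 in neck, wing and leg, and 30.8, 279.6 and 24.1 FPKM. Wing stood apart from both other regions in each table. *FABP3* rose in wing against neck by 2.81 ± 0.17 (limma SE, n = 2 per region, limma adjusted p = 1.35e-55). It fell in leg against wing by 3.25 (limma adjusted p = 7.84e-74). This SE comes from the spread pooled over genes and is not the error of *FABP3* alone. The tables gave 2.47 and 3.14 for wing against neck, and -3.02 and -3.49 for leg against wing. In the limma fit with each gene's own spread, neither call passed (adjusted p = 0.183 and 0.117). *FABP7*, a family member known from the brain, had 34, 33 and 19 and 18.9, 29.0 and 16.6 FPKM, and fell in leg against neck by 0.49 (limma adjusted p = 0.0442) and against wing by 0.77 (adjusted p = 7.77e-05). The first of these limma calls was lost with quantile normalization (adjusted p = 0.184), centring (0.157) and rescaling to the same total (0.235), and ran from -0.81 to -0.18 between the tables. The second was lost with quantile normalization (adjusted p = 0.0761). *FABP5*, which also binds retinoic acid, was by far the most abundant family member, with 3693, 5194 and 3301 FPKM in neck, wing and leg and no difference past the threshold.

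*PPARG*, a nuclear receptor that pairs with RXR and drives fat cell formation, had 16, 10 and 10 and 36.7, 25.8 and 25.9 FPKM. It fell by 0.56 in wing against neck (limma adjusted p = 0.0115) and by 0.56 in leg against neck (adjusted p = 0.024), so wing and leg lay together below neck. The limma call in wing was lost with only the 4 libraries compared (adjusted p = 0.212), and that in leg with quantile normalization (0.21) and rescaling (0.162). *DHRS3*, which turns retinal back to retinol, had 22, 14 and 24 and 13.7, 13.7 and 18.3 FPKM and rose in leg against wing by 0.57 (limma adjusted p = 0.00701). *NCOA1*, a receptor coactivator, had 16, 12 and 11 and 19.5, 25.1 and 14.4 FPKM and fell in leg against wing by 0.44 (limma adjusted p = 0.0444). That call was lost with centring (-0.07, limma adjusted p = 0.705), rescaling (0.146), the 4 libraries alone (0.145) and quantile normalization (0.958), and the tables gave -0.12 and -0.76.

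*SDR16C5*, an epidermal retinol dehydrogenase, had 271, 40 and 253 in neck, wing and leg of the first table but 9.83, 15.6 and 10.9 FPKM. The 2 tables thus had opposite signs, with -2.73 and 0.62 for wing against neck and 2.63 and -0.48 for leg against wing. The limma calls (-1.06 with adjusted p = 1.91e-08, and 1.07 with adjusted p = 7.09e-09) rest on the first table. Both were lost with quantile normalization (limma adjusted p = 0.192 and 0.153) and centring (0.244 and 0.162), the first also with rescaling (0.0823) and the second with the 4 libraries alone (0.33).

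**Figure D4:**
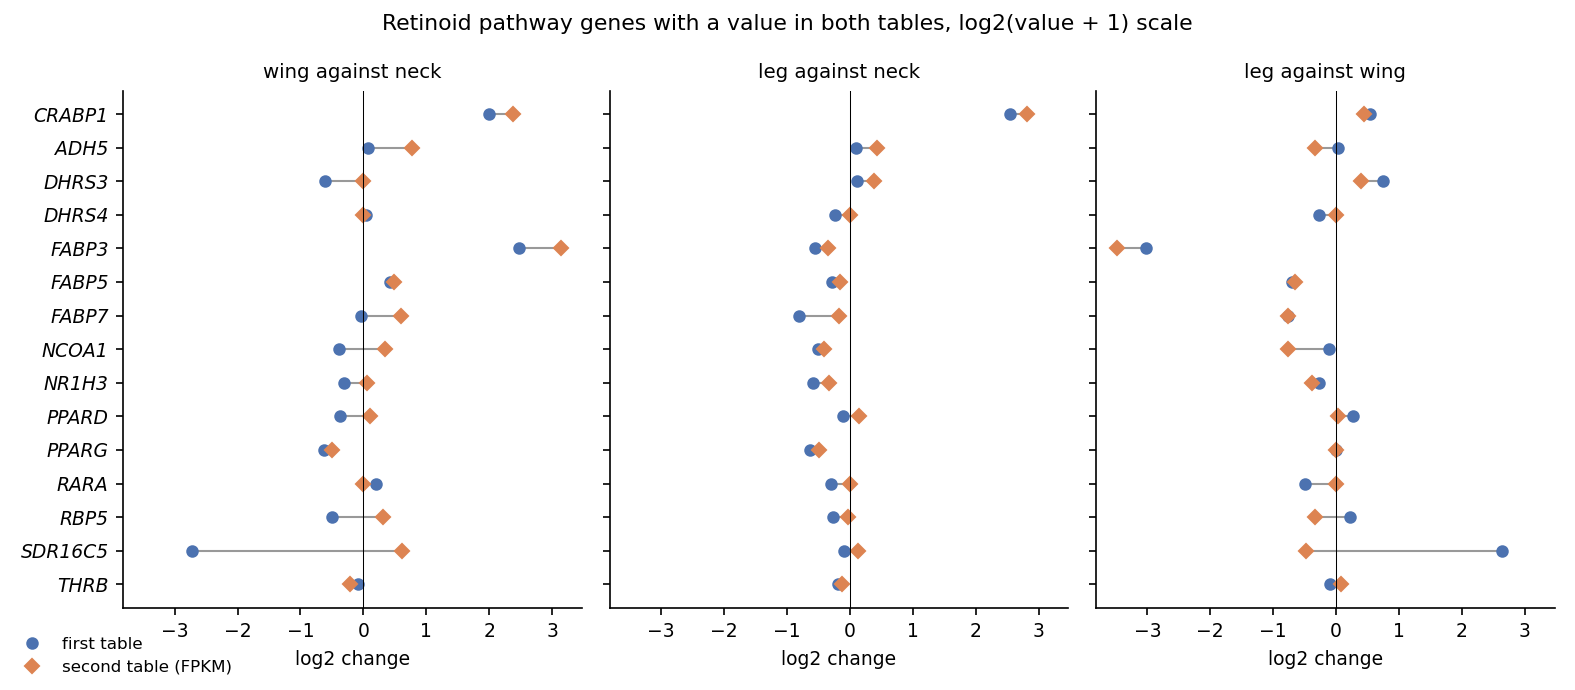
Log2 difference on the log2(value + 1) scale in the first table (circles) and the second (diamonds) for *CRABP1* and the 14 genes of the wider pathway listed in both, in 3 panels by comparison. The 14 include fatty acid-binding proteins and receptors that pair with RXR. The points of *CRABP1* lie close together (2.00 and 2.38 for wing against neck), those of *SDR16C5* lie on both sides of 0 (-2.73 and 0.62), and *RARA* and *DHRS4* are at 0 in the second table because it lists them at 0.

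The pathway genes were also counted table by table, by 2-fold differences and with no test. The first table listed 18 pathway genes. *CRABP2* and *FABP3* were higher in wing than in neck, and *NRIP1*, a receptor corepressor, and *SDR16C5* were lower. Each pair is 11.1% of the 18, where 5.45% of all entries were higher and 7.85% lower. Only *CRABP2* was higher in leg than in neck and 0 were lower, where 1.79% and 4.38% of all entries were. For leg against wing 2 were higher and 2 lower, where 4.79% and 10.7% of all entries were.

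Of the 48 pathway genes with FPKM, 28 had a mean of at least 1. In wing 7 of these were at least 2-fold higher than in neck, which is 25% against 15.1% of all entries, and 0 were lower. Centring on the median also left 7 past 2-fold in either direction, but not the same ones. *RARB* (0.81) and *NR2F2*, which lay below it, were then no longer 2-fold higher. *ALDH1A2* (-1.21) and *ALDH1A3* (-1.05) were 2-fold lower in wing. The median difference of the 28 was 0.54, where all entries had 0.39. In leg 2 were higher than in neck (*ALDH1A3* and *RARRES2*) and 1 was lower (*FABP4*), or 7.14% and 3.57% against 2.93% and 0.823% of all entries. For leg against wing 1 was higher (*ALDH1A3*) and 8 were lower, or 3.57% and 28.6% against 2.17% and 14.8% of all entries, with a median of -0.60 where all entries had -0.44.

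Of 13 listed genes known to be induced by retinoic acid, 7 had a mean of at least 1 FPKM. The median difference of these 7 between wing and neck was 1.19, where all entries had 0.39. Among them 5 were at least 2-fold higher in wing than in neck and 0 lower, where 15.1% and 1.82% of all entries were. The second table alone gives this count, and the 5 are *MEIS1*, *NR2F2*, *RARB*, *RARRES1* and *RARRES2*. *RARB* (1.19) and *NR2F2* (1.18) passed 2-fold only narrowly. With each library centred on its median *RARB* fell to 0.81. *NR2F2*, which lay below *RARB*, then also fell short of 2-fold, so the count depends on the scaling. *MEIS1* was under 1 FPKM in neck and reached the minimum mean through wing and leg. The first table listed 3 such genes, of which *CRABP2* was 2-fold higher in wing, *NRIP1* was lower with 20, 7 and 17, and *DHRS3* was also lowest in wing. *RARRES2*, which encodes the chemoattractant chemerin, had 9.27 FPKM in neck, 87.8 in wing and 20.2 in leg. *RARRES1* had 4.13, 22.1 and 9.07 FPKM. *MEIS1*, a homeobox gene that retinoic acid maintains in the proximal limb bud, had 0.586, 6.66 and 2.00 FPKM, while its relative *MEIS2* was nearly level, with 6.72 in neck and 7.19 in leg. *NR2F2*, an orphan nuclear receptor, had 5.36, 13.4 and 7.02 FPKM. *BCO1*, which cleaves carotene to retinal and is not among the induced genes counted here, had 1.22, 13.0 and 1.90 FPKM. *DHRS3*, like *MEIS2*, was highest in leg. In *RARRES2*, *RARRES1*, *MEIS1*, *NR2F2* and *BCO1* wing was highest and neck lowest, so leg lay between, unlike in *CRABP1*.

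Markers of mesenchyme moved in the same direction over neck as *CRABP1*. Of 19 markers in the second table, 19 were higher in wing than in neck and 18 higher in leg than in neck (all but *MGP*). Most entries with a mean of at least 1 FPKM were above neck in wing too, as only 21.2% lay below the 0.05 of *MEIS2*. In leg against neck 53.4% of entries lay below the -0.01 of *ALDH1A2*. The FPKM of the markers summed to 427, 1895.5 and 980 in neck, wing and leg. Of the 18 with a mean of at least 1 FPKM, 17 were at least 2-fold higher than neck in wing and 11 in leg. Among all entries these shares were 15.1% and 2.93%. The markers *THY1*, *TWIST2* and *TNC* were under 1 FPKM in neck and reached the minimum mean through wing and leg. For them the minimum mean itself favours a rise over neck. Of 8 markers in the first table, 7 were higher in wing and 6 in leg, with sums of 205, 665 and 385. There 7 were at least 2-fold higher in wing and 4 in leg, where 5.45% and 1.79% of all entries were. In limma 7 of the 8 tested rose in wing against neck, 6 rose in leg against neck and 7 fell in leg against wing. Of all genes tested, 19.5%, 1.79% and 40.7% did so. No listed marker was at 0 in any library, and *DCN*, a fibroblast proteoglycan, had 146 FPKM in neck, 482 in wing and 305 in leg. Only *VIM* in the first table and *TNC* in the second had leg above wing. Set against the marker sum, to which it does not belong, *CRABP1* came to 2.44%, 3.46% and 8.83% of it in neck, wing and leg of the first table and to 1.77%, 2.29% and 6.03% by FPKM. The ratio was thus highest in leg in both tables. *VIM* and *DCN* made up most of the sum in neck, with 75 and 55 in the first table and 133 and 146 FPKM. The median log2 difference of the markers over neck was 2.56 and 2.51 in wing, above the 2.00 and 2.38 of *CRABP1*. In leg it was 1.19 and 1.18, below the 2.54 and 2.81 of *CRABP1*. The part of mesenchyme in the *CRABP1* values was not tested.

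Markers of blood and endothelium summed to 13.6 FPKM in neck, 97.5 in wing and 34.1 in leg, over 13 genes of the second table. Haemoglobin genes alone had 2.72, 54.5 and 8.03 FPKM. Melanocyte markers summed to 250 FPKM in neck, 575 in wing and 215 in leg over 10 genes. Of the 8 with a mean of at least 1 FPKM, 7 were above neck in wing, as most entries of any kind were. The other marker, *TYRP1*, went the opposite way with 13.7, 0.203 and 20.2 FPKM, and *KIT* was nearly level with 70.5, 73.9 and 65.5. *PMEL* was listed at 0 FPKM but had 24, 62 and 17 in the first table. The mesenchyme, blood and melanocyte sums were highest in wing and the *F-KER*-led epithelium sum was lowest there. Gene by gene, however, 7 of the 9 epithelium markers with a mean of at least 1 FPKM were above neck in wing, again as most entries were. The median log2 difference of these 9 markers was 0.43, where all entries had 0.39. *RARB*, *RDH10*, *FABP3*, *RARRES1* and *RARRES2* were also highest in wing, and the part of these cell types in the values of those genes was not tested.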

How the data were processed

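RNA-seq of growing neck, wing and leg feathers was analysed from 2 tables, with replicate 1 of each region in the first and replicate 2 in the second. Whole-number scores with loci, of no stated unit or normalization, were deposited as the first table, and these were not treated as counts. The authors deposited FPKM in the second, without loci, and a further column with their mean (1 column) and 101 rows without values were not used. The submitters' processing notes name TopHat2 2.1.0, Cufflinks 2.2.1 and galGal4, with no role given for the first table. Of the entries of the first table, 525 merge several genes. Names damaged by spreadsheet conversion (8 and 11) were left out. Older symbols were matched with RefSeq's GRCg7b gene list, which holds 4000 names of the first table and 6337 from the other, and none of its coordinates were used. The first table lists *CRABP1* as CRABP-I.

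Regions were compared with limma 3.58.1 in R 4.3.3 (lmFit, then eBayes with trend) as log2(value + 1) for the 2179 genes with a single entry in each table and a mean of at least 1, with the replicate number as a block and Benjamini-Hochberg adjustment at 0.05. The design had assumed a single normalized unit and was kept, since a block by table takes up each gene's offset between the units. It does not take up a shift of a region that differs between the tables. The median difference of wing against neck was -0.08 in the first table and 0.39 in FPKM. Such shifts enter both the differences and the spread behind the p-values. The replicate numbers come from the labels, and the deviations of same-numbered samples from their group means correlated at 0.968 or more, as the tables differ in unit. Each gene had 2 residual degrees of freedom and the spread was pooled over genes. Differences of 2-fold within a table are descriptions on the log2(value + 1) scale over entries with a mean of at least 1. The genes named are the members, pathway genes that passed limma or reached 2-fold, listed relatives of the members, and the 8 genes nearest to *CRABP1*. Epithelium markers and the genes near the locus were added after their values were seen. Values of 2 genes, 1 of them a member, are not reported here. The members and lists were chosen with earlier results of these data known. Python 3.11.15, pandas 2.3.3, numpy 2.4.6 and matplotlib 3.10.9 were used.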

Additional observations from a re-analysis of the deposited data

How the results depend on the processing

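The order of *CRABP1*, leg above wing above neck, held under every alternative run. This is a description, since *CRABP1* was chosen on the same values. Leaving out a replicate only returns the values of 1 table, and a pseudocount cannot change the order within a table. The difference of *CRABP1* from neck was 2.00 to 2.38 in wing and 2.54 to 2.81 in leg with either replicate left out. For leg against wing it was 0.43 to 0.54. Quantile normalization gave 2.47, 3.29 and 0.82 for wing against neck, leg against neck and leg against wing. Centring on the median gave 2.90 for leg over neck and 0.86 for leg over wing, and rescaling to the same total 0.66 for leg against wing. limma called 603, 266 and 1016 genes in wing against neck, leg against neck and leg against wing. Without the replicate block it called 1, 0 and 2 (37, 9 and 32 at an unadjusted p under 0.05), and with each gene's own spread, added after seeing the data, 0, 0 and 0 (438, 289 and 705). In wing against neck it called 998 genes with centring and 198 with the 4 libraries of these regions alone. Of the calls, 70.3%, 14.7% and 12.8% were higher, against 46%, 44.4% and 51.8% with quantile normalization, 47.8%, 53.7% and 54.3% with centring and 69.8%, 40.1% and 27% with rescaling. Of the 10 calls among pathway genes, 10 passed with a pseudocount of 0.1 and with no filter, 7 with 4 libraries, 6 with centring, 6 with rescaling (added after seeing the data), 4 with quantile normalization and 0 without the block or with own spread. *NCOA1* in leg against wing was 0.013 with quantile normalization. *SDR16C5* ran from -2.73 to 0.62 in wing against neck and from -0.48 to 2.63 in leg against wing when a replicate was dropped. A pseudocount of 0.1 gave 6 pathway genes past 2-fold in leg against neck in the second table in place of 3. Centring gave 6 there in leg against wing in place of 9. The cause of these shifts was not tested. With a replicate left out no count of calls was possible, as 1 library per region remained. The unknown number of fragments limits all low values.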
